A study of Mus musculus with 44 samples.

Results

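Livers of wild-type (WT) mice fed a diet deficient in choline and rich in fat (CD-HFD) were compared with livers of WT mice fed a diet deficient in choline and poor in fat (CD-LFD), which leaves dietary fat as the labelled difference between groups that both lacked choline. The comparison used every library labelled WT on either of these diets, 6 for CD-HFD and 6 for CD-LFD, and so 12 of the 44 libraries of the series. The mice were 2 months old when feeding began and stayed on the diet for 6 months. RNA was extracted from a piece of whole liver with a column kit and sequenced with a directional library kit. Strain, sex, diet composition and the time of day of collection are not in the labels. The series also holds 6 WT libraries on normal chow (control), quoted below as a background level, and the same diets in Ripk3-/- mice (4 CD-HFD, 3 CD-LFD) and Mlkl-/- mice (3 CD-HFD, 4 CD-LFD), which lack the kinase or the membrane-disrupting effector of necroptosis, a lytic form of programmed cell death. Titles number the libraries, but nothing else states that each came from a separate animal, so the p-values measure the spread between these libraries.

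Choline is needed to make phosphatidylcholine, the main phospholipid of the very-low-density lipoproteins (VLDL) in which the liver exports fat, and livers short of choline store triglyceride. Combined with a fat-rich diet, choline deficiency is widely used in mice to produce steatohepatitis with fibrosis and, over longer times, tumours. Dietary carbohydrate and insulin drive the liver's own fatty acid synthesis through the transcription factors SREBP-1c and ChREBP, and polyunsaturated fat represses it.

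Total counts were 4960324 to 11070338 in 11 of the 12 libraries and 88204703 in CD-LFD replicate 3. Levels are given as CPM, counts relative to library size, after scaling by the trimmed mean of M values (TMM). The scaling factors were 1.26 ± 0.0797 (SD, n = 6) in CD-HFD and 1.10 ± 0.117 (SD, n = 6) in CD-LFD (two-sided exact permutation p = 0.0303). Under scaling by library size alone the median log2 change over all genes tested moved from -0.0113 to 0.184. In a principal component analysis of the 12 libraries the first component held 43.1% of the variance and ran from -56.0 to -16.6 in CD-LFD and from 23.0 to 55.0 in CD-HFD. The albumin gene Alb was at 40352 to 81341 CPM in CD-LFD and 39261 to 63488 CPM in CD-HFD, and the other hepatocyte markers listed were present in all 12 libraries. The Y-linked gene Ddx3y was at 35.4 to 61.4 CPM before TMM scaling. Xist, expressed from the inactive X chromosome of females, had 1 to 17 counts per library, or 0.0903 to 1.39 CPM before that scaling. The 17 counts were in CD-LFD replicate 3.

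The circadian clock of the liver stood at different phases in most libraries of the 2 groups, and this bears on every comparison that follows. In the clock, ARNTL (BMAL1) with CLOCK or NPAS2 binds E-boxes and drives the Per, Cry, Nr1d, Dbp, Ciart and Bhlhe41 genes, the PER and CRY proteins inhibit them, and DBP, TEF and HLF act at D-boxes that NFIL3 blocks. Arntl and Dbp peak at opposite times of day in mouse liver. Promoters of 3 called clock genes that hold such a box are shown, so that the boxes can be seen beside the levels that follow. They are the 250 bases upstream of the start in RefSeq (GRCm38.p6), minus strand, written 5′ to 3′: Ciart at chr3:95882229-95882478, Bhlhe41 at chr6:145865421-145865670 and Per3 at chr4:151044666-151044915. Capitals mark the E-box CACGTG in the first pair and the D-box TTATGTAA in Per3.
Ciart: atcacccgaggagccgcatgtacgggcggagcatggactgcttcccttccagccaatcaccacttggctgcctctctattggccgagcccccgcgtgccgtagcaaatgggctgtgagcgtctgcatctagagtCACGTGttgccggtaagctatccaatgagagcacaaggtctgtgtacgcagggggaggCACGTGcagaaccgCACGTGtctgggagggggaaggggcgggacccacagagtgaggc
Bhlhe41: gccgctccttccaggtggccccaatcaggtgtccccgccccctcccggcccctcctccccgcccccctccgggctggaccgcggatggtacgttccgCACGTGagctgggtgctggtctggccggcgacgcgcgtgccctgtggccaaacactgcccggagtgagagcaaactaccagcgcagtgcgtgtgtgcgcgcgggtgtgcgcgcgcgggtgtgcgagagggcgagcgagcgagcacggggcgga
Per3: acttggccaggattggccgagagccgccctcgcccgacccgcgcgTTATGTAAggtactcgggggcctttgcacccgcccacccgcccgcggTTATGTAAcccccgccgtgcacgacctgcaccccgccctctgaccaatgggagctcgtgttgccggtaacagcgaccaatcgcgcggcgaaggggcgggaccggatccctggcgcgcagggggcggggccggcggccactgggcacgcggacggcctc
Both strands were searched, and the matches marked do not overlap. CACGTG was in 6.02% of 32851 promoters of this length, and by gene in 1854 of 27025. It was in 5 of the 16 clock genes with a promoter in the table. TTATGTAA was in 0.819% of promoters, by gene in 264 of 27025, and in 1 of those 16 clock genes. A match is a description of the letters only.

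The log2 ratio of Arntl to Dbp counts was -5.26 ± 1.63 (SD, n = 6) in CD-HFD and -1.41 ± 0.969 (SD, n = 6) in CD-LFD, a difference of -3.85 (two-sided exact permutation p = 0.00649, where 0.00216 is the smallest possible). Across all 44 libraries, gaps in this ratio were sought that left at least 5 libraries on each side. The largest of these, 1.03 wide, lay between -3.71 and -2.68 and put 11 libraries above it and 33 below. All 6 CD-LFD libraries lay above the gap, 5 CD-HFD libraries lay below it, and CD-HFD replicate 3 lay above it at -2.14. The WT controls fell on both sides, 4 above and 2 below, and every knockout library lay below. The ratio of Npas2 to Per3 differed by -3.21 in the same direction (exact permutation p = 0.0195). The clock genes were chosen with earlier results of these data known, so the p-values of these ratios are no fresh test.

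**Figure D1:**
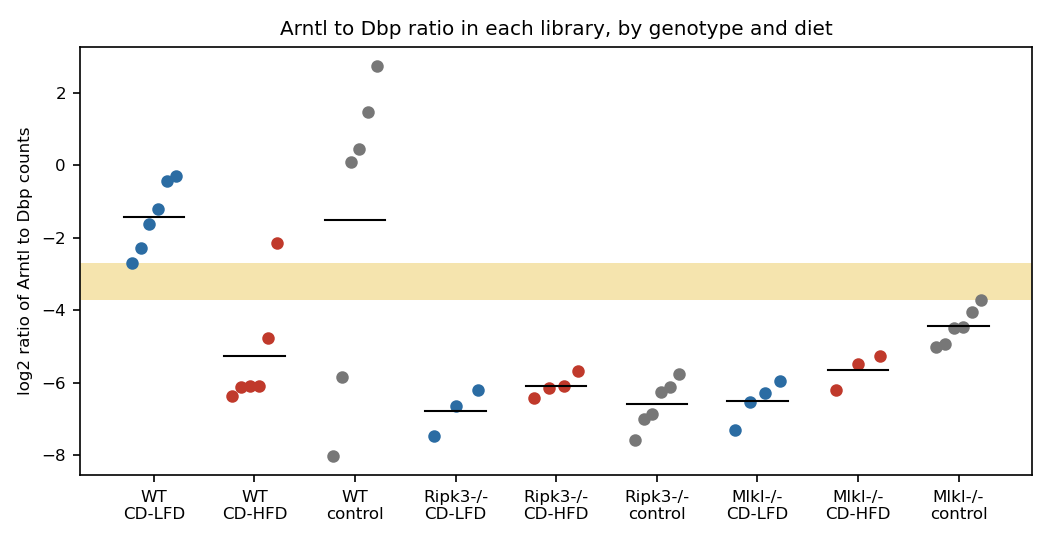
The log2 ratio of Arntl to Dbp counts (vertical axis) is plotted for each of the 44 libraries by genotype and diet, with 1 point per library and a line at each group mean; the shaded band is the gap between -3.71 and -2.68. The 6 WT CD-LFD libraries and WT CD-HFD replicate 3 lie above the band, and the other 5 WT CD-HFD libraries lie below it.

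Of the 19 clock genes, 5 rose and 4 fell in CD-HFD, where an adjusted p under 0.05 made a call and 13.7% of all genes tested rose and 7.4% fell. Ciart, a repressor of ARNTL, was at 3.49 to 44.3 CPM (median 20.5) in CD-HFD and at 2.10 to 6.35 CPM (median 4.35) in CD-LFD (log2 change 2.48, SE 0.579, adjusted p 0.00141). Dbp was at 40.7 to 150.2 CPM (median 122) in CD-HFD and at 15.05 to 61.5 CPM (median 29.9) in CD-LFD (log2 change 1.76, SE 0.511, adjusted p 0.0102). Arntl was at 1.53 to 9.16 CPM (median 2.03) in CD-HFD and at 9.03 to 18.8 CPM (median 10.7) in CD-LFD (log2 change -1.83, SE 0.433, adjusted p 0.00163). The groups overlapped for these genes only through CD-HFD replicate 3, which had 3.49 CPM of Ciart, 40.7 of Dbp and 9.16 of Arntl. Bhlhe41, a transcriptional repressor of the same loop, rose, at 8.38 to 16.4 CPM (median 11.99) in CD-HFD against 2.13 to 4.53 CPM (median 2.92) in CD-LFD (log2 change 1.92, SE 0.313, adjusted p 1.34e-05), and here replicate 3 was the highest library at 16.4 CPM. Per3 (log2 change 1.21, adjusted p 0.0289) and Per1 (log2 change 0.66, adjusted p 0.0311) also rose. Nfil3 (log2 change -0.82, adjusted p 0.0220), Clock (log2 change -0.65, adjusted p 0.0276) and Rora (log2 change -0.45, adjusted p 0.0286) fell. The other 10, among them Npas2, Bhlhe40, Nr1d1, Cry1, Hlf, Nr1d2, Cry2, Per2 and Tef, were not called, with log2 changes from -1.46 to 0.70 and adjusted p from 0.0546 to 0.934. In the fits that left out 1 library, calls were lost for Per3 in 6 of 12, Clock in 5, Per1 in 4, Rora in 3 and Nfil3 in 2. Leaving out any of CD-LFD replicates 2 and 3 or CD-HFD replicates 1 and 2 left 3 clock genes that rose.

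Fat content went with a large difference across the liver transcriptome. Of 14862 genes tested, 3140 (21.1%) were called, 2040 (13.7%) higher and 1100 (7.4%) lower in CD-HFD. Called changes of at least 2-fold numbered 1743 (11.7%), with 1427 (9.6%) higher and 316 (2.13%) lower. All 6 CD-HFD libraries stood above all 6 CD-LFD libraries for 1134 genes (7.63%) and below them for 549 (3.69%). Under scaling by library size alone the calls split into 3058 higher (20.6%) and 500 lower (3.36%). DESeq2 called 2392 genes higher (16.1%) and 1072 lower (7.21%).

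Clock phase and diet can only be separated in part, since 1 CD-HFD library shares a side with CD-LFD. The clock-side term is 1 effect shared by all groups. It rests on the groups with libraries on both sides, WT control (4 above and 2 below) and WT CD-HFD (1 and 5). Its effect is thus assumed equal on chow and under choline deficiency. With the clock side as a term, 2245 genes were called, 1644 higher (11.1%) and 601 lower (4.04%), and 1777 of them were among the 3140, in the same direction. Within the clock side of the CD-LFD libraries, where CD-HFD replicate 3 stands alone against 6 and is assumed to vary as the other groups do, 1606 genes were called, 1367 higher (9.2%) and 239 lower (1.61%). Of these, 1417 were among the 3140 in the same direction, and 3112 of the 3140 had the same sign. Without CD-HFD replicate 3 and the deep CD-LFD replicate 3, 2047 genes were called, 1343 higher (9.04%) and 704 lower (4.74%), of which 2009 were shared. Each of these refits reuses libraries that chose the 3140 genes, so shared calls and signs are in part built in. The counts of these refits, called the clock-side term, the same-side fit and the fit without both replicates 3, and those under scaling by library size alone are given with the gene groups below, to be read against the shares of all genes that each calls. Clock gene rises and falls numbered 1 and 2 with the clock-side term, 1 and 0 in the same-side fit, 6 and 5 without both replicates 3, and 8 and 1 under library size alone. The clock side is defined from the Arntl to Dbp ratio itself, so the clock-side and same-side values of the clock genes are no test of them. How far clock phase contributes to a given gene cannot be told apart from diet beyond these values.

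The 12 largest rises included genes of matrix turnover and of macrophages. H19, an imprinted non-coding RNA abundant in fetal liver, was at 4.06 to 89.6 CPM (median 9.21) in CD-HFD and at 0 to 0.905 CPM (median 0.299) in CD-LFD (log2 change 5.81, SE 0.772, adjusted p 3.67e-07). Mmp12, which encodes macrophage elastase, was at 141 to 421 CPM (median 183) against 11.4 to 20.9 CPM (median 17.9) (log2 change 3.76, SE 0.247, adjusted p 1.62e-14). Mmp7, the epithelial metalloproteinase matrilysin, was at 19.2 to 34.4 CPM (median 25.2) against 0.723 to 5.59 CPM (median 2.35) (log2 change 3.39, SE 0.452, adjusted p 3.95e-07). The 2 groups did not overlap for any of these, and in the WT controls Mmp12 was at 0 to 0.733 CPM and Mmp7 at 0 to 0.341 CPM. Clec4d, a C-type lectin of myeloid cells, was at 10.1 to 21.8 CPM (median 12.4) against 0.698 to 1.60 CPM (median 1.09) (log2 change 3.69, adjusted p 1.35e-10). Gpnmb, a glycoprotein of lipid-laden macrophages, was at 208 to 665 CPM (median 277) against 21.9 to 75.1 CPM (median 44.5) (log2 change 2.93, adjusted p 8.13e-10), and Lgals3, the lectin galectin-3, at 221 to 444 CPM (median 313) against 27.7 to 63.2 CPM (median 40.8) (log2 change 2.86, adjusted p 1.52e-11). Controls had at most 1.83 CPM of Gpnmb and 6.11 CPM of Lgals3, so that both diets stood above chow and CD-HFD above CD-LFD in every library.

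The other large rises were of mixed function. Mgp, matrix Gla protein, an inhibitor of calcification, was at 5.28 to 14.7 CPM (median 10.7) in CD-HFD against 0.558 to 2.13 CPM (median 1.06) in CD-LFD (log2 change 3.10, adjusted p 2.29e-07), and in controls at 0.851 to 2.74 CPM, close to CD-LFD. Ccn5, a matricellular protein, was at 7.18 to 12.98 CPM (median 10.9) against 0.167 to 2.47 CPM (median 1.15) (log2 change 3.10, adjusted p 1.93e-08). The cell-surface receptor gene Igdcc4 was at 3.38 to 7.57 against 0.287 to 1.11 CPM (log2 change 3.11, adjusted p 2.45e-06), and the tetraspan membrane protein gene Lhfpl2 at 17.6 to 50.3 against 2.51 to 5.69 CPM (log2 change 2.91, adjusted p 7.11e-11). Cyp2a4, a steroid hydroxylase higher in female than in male mouse liver, was at 21.00 to 85.03 CPM (median 35.2) against 2.39 to 13.6 CPM (median 4.18) (log2 change 2.89, adjusted p 3.66e-05), and its reads may be shared with its near-identical neighbours in the Cyp2a family. None of these 12 rises lost its call in a fit that left out 1 library, and all 12 passed in the same-side fit. RNA came from whole liver, so more cells of a type and more RNA per cell cannot be told apart for any gene here.

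**Figure D2:**
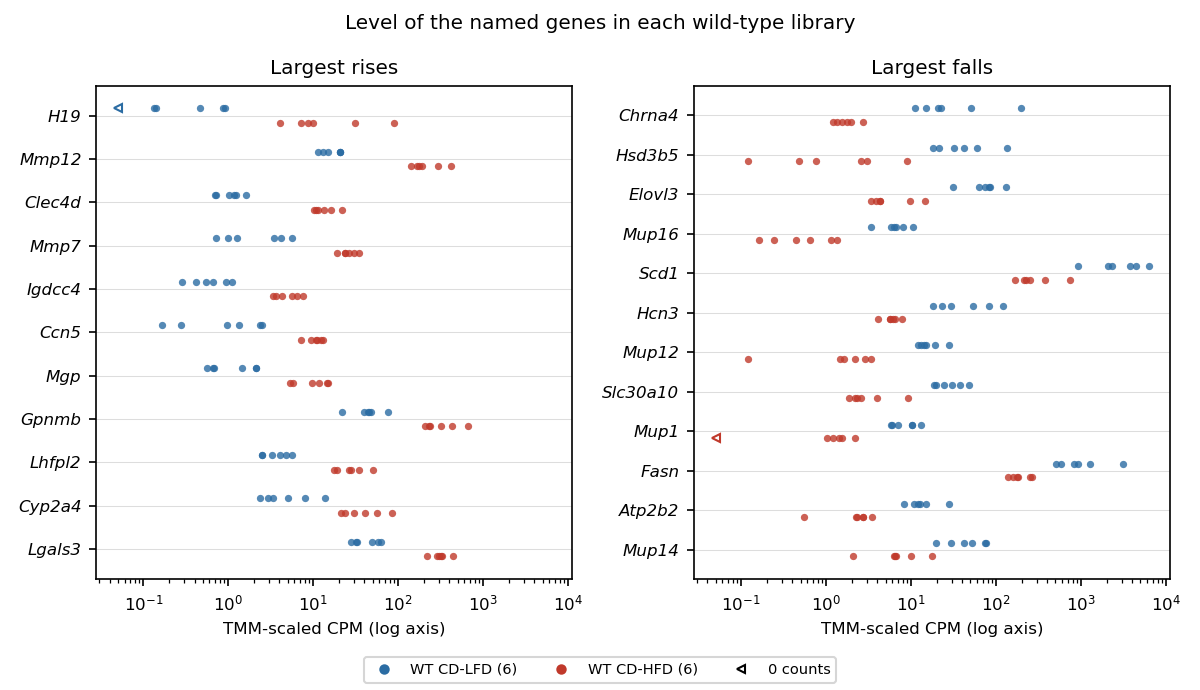
Levels of 11 of the 12 largest called rises and of the 12 largest called falls are plotted per library as TMM-scaled CPM on a log axis, for WT CD-LFD (blue) and WT CD-HFD (red), with 1 point per library and open triangles for libraries with 0 counts. The 2 groups do not overlap for any of the 23 genes, as the choice of genes required.

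The 12 largest falls included genes of fatty acid synthesis and elongation and genes expressed more in male than in female liver. Scd1, the stearoyl-CoA desaturase, was at 165 to 748 CPM (median 237) in CD-HFD and at 928 to 6236 CPM (median 3077) in CD-LFD (log2 change -3.33, SE 0.472, adjusted p 1.27e-06). Fasn, fatty acid synthase, was at 139 to 264 CPM (median 178) against 513 to 3146 CPM (median 876) (log2 change -2.64, SE 0.332, adjusted p 1.22e-07). Elovl3, an elongase of very long chain fatty acids with higher levels in male liver, was at 3.38 to 14.5 CPM (median 4.29) against 30.9 to 130.1 CPM (median 78.1) (log2 change -3.55, SE 0.520, adjusted p 2.18e-06). CD-HFD was the low group in each, and controls were at 3245 to 18666 CPM of Scd1, 757 to 2102 CPM of Fasn and 78.7 to 658 CPM of Elovl3. Hsd3b5, a male-biased hydroxysteroid dehydrogenase, was at 0.122 to 8.95 CPM (median 1.67) against 18.1 to 136 CPM (median 37.1) (log2 change -4.31, adjusted p 1.21e-06), with controls at 169 to 403 CPM. Slc30a10, a manganese exporter, was at 1.85 to 9.16 CPM (median 2.44) against 18.8 to 48.7 CPM (median 27.4) (log2 change -3.04, adjusted p 4.84e-09).

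Of the 12 falls, 4 were genes of the major urinary protein cluster, which encode pheromone carriers secreted by the liver. Mup16 was at 0.161 to 1.35 against 3.34 to 10.6 CPM (log2 change -3.41, adjusted p 3.27e-05) and Mup12 at 0.122 to 3.39 against 11.99 to 27.9 CPM (log2 change -3.10, adjusted p 3.34e-07). Mup1 was at 0 to 2.17 against 5.73 to 12.9 CPM (log2 change -2.85, adjusted p 2.95e-07) and Mup14 at 2.07 to 17.6 against 19.8 to 76.6 CPM (log2 change -2.60, adjusted p 5.52e-07). These genes are near-identical copies, so the division of reads among them is uncertain. The last 3 are best known from excitable cells: Chrna4, a nicotinic receptor subunit, was at 1.19 to 2.71 against 11.2 to 197 CPM (log2 change -4.91, adjusted p 7.73e-06), Hcn3, a pacemaker channel, at 4.06 to 7.74 against 18.1 to 121 CPM (log2 change -3.20, adjusted p 1.77e-05), and Atp2b2, a plasma membrane calcium pump, at 0.542 to 3.49 against 8.16 to 27.8 CPM (log2 change -2.61, adjusted p 2.84e-05). In controls Chrna4 and Hcn3 overlapped with their CD-LFD levels (10.6 to 87.7 and 27.9 to 127 CPM) and Atp2b2 with its CD-HFD level (0 to 3.42 CPM). In the same-side fit Chrna4, Hsd3b5, Elovl3, Scd1, Hcn3 and Atp2b2 missed the threshold (adjusted p 0.0623 to 0.127) with negative log2 changes, and the other 6 falls passed.

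Genes of de novo fatty acid synthesis fell together. Of 24 genes, 18 fell and 1 rose, against 7.4% and 13.7% of all genes, with a median log2 change of -1.29. Beside Scd1 and Fasn, Acacb, the acetyl-CoA carboxylase of mitochondria, was at 11.03 to 29.8 CPM (median 21.98) in CD-HFD and 53.4 to 155 CPM (median 85.4) in CD-LFD (log2 change -2.11, adjusted p 5.25e-06). Agpat2, which adds the second acyl chain in glycerolipid synthesis, was at 102 to 157 against 182 to 324 CPM (log2 change -1.03, adjusted p 3.78e-06). Neither gene overlapped between the groups. Other steps that fell, chosen for naming after their values were seen, were the regulators Srebf1 (-0.73) and Mlxipl (-1.45), which encode SREBP-1 and ChREBP, and the enzymes Acly (-1.53), Acaca (-1.57), Elovl6 (-2.25) and Pklr (-2.27), all as log2 changes. The desaturase Fads2 rose, named here for the same reason (log2 change 0.86, adjusted p 0.0180), and lost its call with the clock-side term (-0.077, adjusted p 0.915). Dgat1, Dgat2, Lpin1 and Fads1 were not called. Lipogenic rises and falls numbered 0 and 16 with the clock-side term, 0 and 4 in the same-side fit, 1 and 17 without both replicates 3, and 1 and 17 under library size alone.

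Among genes of fatty acid storage, uptake and oxidation, Fabp4, Cd36, Vldlr, Ucp2 and Cpt1a rose and Mogat1, Plin3, Pdk4 and Acaa1b fell. Among 23 lipid droplet and uptake genes 3 rose and 2 fell, close to the 13.7% and 7.4% over all genes. Fabp4, a fatty acid carrier of macrophages and adipocytes, was at 18.6 to 33.6 CPM (median 23.5) against 5.13 to 10.1 CPM (median 7.60) (log2 change 1.78, adjusted p 3.19e-05) with no overlap. The fatty acid translocase Cd36 was at 109.9 to 280.4 against 73.6 to 119 CPM (log2 change 0.83, adjusted p 0.0108) and overlapped. The lipoprotein receptor Vldlr was at 1.53 to 3.25 against 0.543 to 1.34 CPM (log2 change 1.20, adjusted p 0.0291). Mogat1, an acyltransferase of triglyceride synthesis, fell to at most 0.731 CPM from 0.495 to 3.26 CPM (log2 change -2.05, adjusted p 0.0127). Cd36 lost its call without CD-HFD replicate 3 alone, and Vldlr lost it in 5 of the 12 fits that left out 1 library (adjusted p up to 0.0756), the worst without CD-LFD replicate 3. Plin3 was the other fall, named after its value was seen (log2 change -0.35, adjusted p 0.0425). Lipid droplet and uptake rises and falls numbered 1 and 2 with the clock-side term, 2 and 0 in the same-side fit, 3 and 1 without both replicates 3, and 5 and 1 under library size alone. Of 30 oxidation and PPAR-alpha target genes 2 rose and 2 fell, against 13.7% and 7.4% of all genes. The mitochondrial carrier Ucp2 rose, at 106 to 172 CPM (median 123) in CD-HFD against 35.7 to 61.9 CPM (median 41.4) in CD-LFD (log2 change 1.53, adjusted p 2.16e-08) without overlap. Cpt1a, which admits fatty acids to mitochondria, rose (log2 change 0.65, adjusted p 0.0375) but lost its call in 8 of the 12 fits that left out 1 library (adjusted p up to 0.105), the worst without CD-HFD replicate 2. Pdk4, which restrains pyruvate oxidation, fell (log2 change -1.47, adjusted p 0.00179), as did Acaa1b (log2 change -0.84, adjusted p 0.0224), whose reads may be shared with Acaa1a and whose call was lost in 3 of those 12 fits, the worst without CD-LFD replicate 4. Oxidation rises and falls numbered 1 and 3 with the clock-side term, 1 and 2 in the same-side fit, 2 and 2 without both replicates 3, and 2 and 1 under library size alone.

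Of 26 genes of glucose metabolism 7 rose and 5 fell, against 13.7% and 7.4% of all genes. Pkm, the pyruvate kinase of non-hepatocytes, was at 76.9 to 157 CPM (median 95.01) against 20.7 to 29.5 CPM (median 24.2) (log2 change 2.07, adjusted p 1.35e-10). Hk3, a hexokinase of myeloid cells, was at 23.3 to 38.1 against 4.05 to 10.3 CPM (log2 change 2.04, adjusted p 1.41e-08). Hk2 (log2 change 1.29, adjusted p 7.44e-05) and Pfkp (log2 change 1.24, adjusted p 1.46e-05) also rose. Of the 5 that fell, those named after their values were seen are G6pc (-2.01), Ppp1r3c (-1.64), Ppp1r3b (-1.12) and Pygl (-1.10), which act in glucose release and glycogen turnover. Pck1, the gluconeogenic carboxykinase, was at 1749 to 3894 CPM in CD-HFD and 1987 to 3669 CPM in CD-LFD and was not called (log2 change 0.29, adjusted p 0.445). Glucose metabolism rises and falls numbered 5 and 6 with the clock-side term, 5 and 1 in the same-side fit, 7 and 5 without both replicates 3, and 7 and 5 under library size alone.

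**Figure D3:**
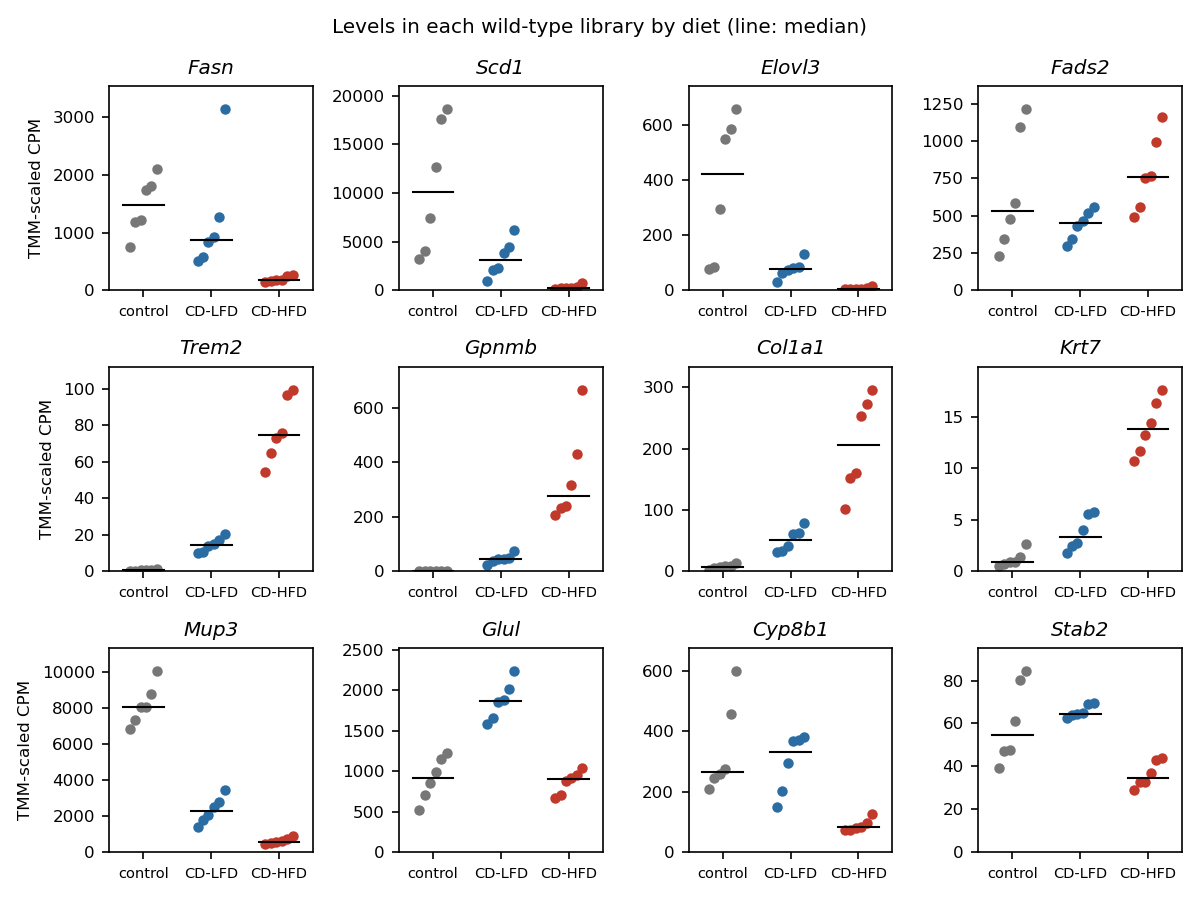
TMM-scaled CPM of 12 genes on linear axes that start at 0 in the 3 WT diet groups (grey control, blue CD-LFD, red CD-HFD), with 1 point per library and a line at each group median. Fasn, Scd1 and Elovl3 are lowest in CD-HFD, Trem2, Gpnmb, Col1a1 and Krt7 are highest there, and Glul is higher in CD-LFD than in CD-HFD and control.

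Some sterol and bile acid genes fell. In cholesterol synthesis 5 of 24 genes fell and 0 rose, against 7.4% and 13.7% of all genes. Insig1, which retains SREBPs in the endoplasmic reticulum, fell, at 102 to 205 CPM (median 168) in CD-HFD against 223 to 443 CPM (median 329) in CD-LFD (log2 change -1.0, adjusted p 0.000847) without overlap, and Fdps, farnesyl diphosphate synthase, also fell (log2 change -1.28, adjusted p 0.00557). The other falls were Ebp, Sc5d and Nsdhl, the last named after its value was seen. The count was 2 without CD-LFD replicate 1 and 3 without CD-LFD replicate 3 or CD-HFD replicate 6. Cholesterol synthesis falls numbered 2 with the clock-side term, 0 in the same-side fit, 3 without both replicates 3, and 2 under library size alone.

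In bile acid synthesis and transport 9 of 24 genes fell and none rose, against 7.4% and 13.7% of all genes. Abcb11, the bile salt export pump, was at 163 to 323 CPM (median 191) in CD-HFD and 409 to 674 CPM (median 479) in CD-LFD (log2 change -1.23, adjusted p 8.08e-07). Cyp8b1, the hydroxylase that makes cholic acid, was at 73.7 to 128 against 150.5 to 382 CPM (log2 change -1.72, adjusted p 9.6e-05), and Cyp27a1, the first enzyme of the alternative pathway, at 196 to 303 against 336 to 478 CPM (log2 change -0.75, adjusted p 4.99e-05). No library overlapped between the groups for these 3 genes. The uptake carrier Slco1a1 fell (log2 change -2.25, adjusted p 1.8e-05) with overlap. Cyp7a1, the rate-limiting enzyme of the classical pathway, was at 45.7 to 119 against 31.96 to 126 CPM and was not called (log2 change 0.091, adjusted p 0.933). Bile acid falls numbered 9 with the clock-side term, 3 in the same-side fit, 8 without both replicates 3, and 7 under library size alone.

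Of 32 genes of choline, phosphatidylcholine and methionine metabolism 4 rose and 8 fell, where 13.7% of all genes rose and 7.4% fell, so that the rises were near the share over all genes. Lpcat1, which reacylates lysophosphatidylcholine, was at 6.77 to 9.27 CPM (median 7.38) against 1.40 to 3.96 CPM (median 2.69) (log2 change 1.5, adjusted p 4.2e-06), and Lpcat2, a related enzyme of inflammatory cells, at 6.69 to 12.4 against 2.37 to 5.25 CPM (log2 change 1.18, adjusted p 4.65e-05). Slc44a2, a choline transporter-like protein, rose (log2 change 0.96, adjusted p 0.000893). Lpcat4 was the other rise, named after its value was seen (log2 change 1.26, adjusted p 0.00256). Cbs, which commits homocysteine to cysteine synthesis, fell, at 174 to 303 CPM (median 209) in CD-HFD against 267 to 582 CPM (median 399.5) in CD-LFD (log2 change -0.90, adjusted p 0.000129). Pemt, which makes phosphatidylcholine by methylation, and Pcyt1a, the rate-limiting enzyme of the choline pathway, are defining members that were not called (log2 change -0.35, adjusted p 0.0811, and log2 change 0.057, adjusted p 0.941). The falls numbered 5 without CD-LFD replicate 1 or CD-HFD replicate 6. Choline list rises and falls numbered 5 and 2 with the clock-side term, 4 and 1 in the same-side fit, 4 and 5 without both replicates 3, and 5 and 3 under library size alone, so that rises outnumbered falls in 3 of these 4 refits.

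Of 20 apolipoprotein and VLDL genes 6 fell and none rose, against 7.4% and 13.7% of all genes. Apoa2, an apolipoprotein of high-density lipoprotein, was at 2415 to 5550.3 CPM (median 4082) against 5606 to 9109.8 CPM (median 8212) (log2 change -0.98, adjusted p 0.00200), and Lipc, hepatic lipase, at 61.5 to 79.4 against 86.4 to 177 CPM (log2 change -0.82, adjusted p 9.73e-06). Apoc3 (log2 change -0.91, adjusted p 0.0131) and Tm6sf2, which acts in VLDL lipidation (log2 change -0.70, adjusted p 0.00488), also fell. Apob, the structural protein of VLDL, was at 1549 to 3064 against 1705 to 4682 CPM (log2 change -0.17, adjusted p 0.725), and Mttp, which loads it with lipid, at 55.7 to 119.9 against 78.6 to 222 CPM (log2 change -0.60, adjusted p 0.0809), and neither was called. Apolipoprotein and VLDL rises and falls numbered 0 and 2 with the clock-side term, 0 and 6 in the same-side fit, 0 and 4 without both replicates 3, and 1 and 4 under library size alone.

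Every gene of the lipid-associated macrophage list rose. Of all genes 13.7% rose. These 16 genes mark the macrophages that take up lipid in fatty liver, and their median log2 change was 2.18. Their summed level was 3664 to 7389.9 CPM in CD-HFD, 1376 to 1796 CPM in CD-LFD and 661 to 1108 CPM in controls. Trem2, the lipid-sensing receptor that defines the state, was at 54.5 to 99.4 CPM (median 74.3) in CD-HFD and 10.02 to 20.6 CPM (median 14.4) in CD-LFD (log2 change 2.42, SE 0.223, adjusted p 1.47e-10), with controls at 0.456 to 1.54 CPM. Tyrobp, its signalling adaptor, was at 56.5 to 102 against 11.4 to 23.00 CPM (log2 change 2.17, adjusted p 1.42e-09). The 3 groups of Trem2 values did not overlap. The part of marker levels of this and the other cell types below in the differences of other genes was not tested. CD-HFD replicate 3, on which the same-side fit rests, had the highest summed level of the 6 CD-HFD libraries for this list, 7390 CPM where the other 5 had 3664 to 5220. It was also the highest CD-HFD library for the summed monocyte and neutrophil, collagen, matrix remodelling, stellate cell, cholangiocyte, chemokine, oncofetal, necroptosis, NRF2, p53, heat shock, unfolded protein, cholesterol synthesis and erythroid lists, so the same-side counts of these lists rest on the CD-HFD library with the highest sum, in some by a narrow margin. For the apolipoprotein and VLDL, lipid droplet and uptake, glucose metabolism, growth hormone axis and acute phase lists it had the lowest CD-HFD sum. Their same-side counts rest on that lowest library. All 16 also rose with the clock-side term, in the same-side fit, without both replicates 3 and under library size alone.

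Monocyte and neutrophil genes rose as well, 9 of 11 tested against 13.7% of all genes, with summed levels of 172 to 317 CPM in CD-HFD and 75.7 to 123 CPM in CD-LFD. Itgam, the integrin CD11b, was at 12.1 to 17.6 CPM (median 13.9) against 1.12 to 3.73 CPM (median 1.5) (log2 change 2.84, adjusted p 7.44e-10), and Adgre1, which encodes F4/80, at 8.01 to 41.3 against 3.84 to 6.66 CPM (log2 change 1.70, adjusted p 0.000708). The Fc receptor gene Fcgr1 (log2 change 1.26, adjusted p 0.00109) and Plac8 (log2 change 1.15, adjusted p 0.00162) rose with overlap. Ly6g, Mpo, Retnlg and Chil3 were below the count filter. Monocyte and neutrophil rises numbered 9 with the clock-side term, 8 in the same-side fit, 6 without both replicates 3, and 10 under library size alone. Of the resident Kupffer cell genes 1 of 11 fell, near the 7.4% of all genes, and none rose. The fall was in the nuclear receptor gene Nr1h3 (log2 change -0.27, adjusted p 0.0420). That call was lost in the clock-side, same-side, both-replicates and library-size refits and in 9 of the 12 fits that left out 1 library (adjusted p up to 0.0967), the worst without CD-LFD replicate 3. Clec4f, a Kupffer cell lectin, was at 9.71 to 49.2 CPM in CD-HFD and 13.4 to 57.95 CPM in CD-LFD (log2 change -0.77, adjusted p 0.218), and the summed level of the list was 272 to 417 against 265 to 503 CPM.

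The complement subunits C1qa, C1qb and C1qc, made by macrophages, were the only 3 rises among 36 complement and coagulation genes, a share below the 13.7% of all genes that rose. C1qb was at 120.0 to 216 CPM (median 142) against 35.7 to 68.1 CPM (median 43.5) (log2 change 1.69, adjusted p 6.33e-06), and C1qa (log2 change 1.36, adjusted p 3.32e-05) and C1qc (log2 change 1.49, adjusted p 7.68e-05) were likewise without overlap. Falls numbered 7 against 7.4% of all genes, among them the lectin gene Mbl1 (log2 change -0.42, adjusted p 0.00739), and 4 without CD-HFD replicate 3. Complement and coagulation rises and falls numbered 3 and 2 with the clock-side term, 3 and 2 in the same-side fit, 3 and 1 without both replicates 3, and 4 and 0 under library size alone. No fall was called under library size alone, where DESeq2 with its own size factors called 7. Of 26 chemokine and cytokine genes 9 rose and none fell, against 13.7% and 7.4% of all genes. The membrane-bound chemokine Cx3cl1 was at 8.81 to 19.6 CPM (median 13.6) against 1.68 to 3.86 CPM (median 2.88) (log2 change 2.28, adjusted p 6.98e-07), and the macrophage chemokine Ccl6 at 12.1 to 32.4 against 1.33 to 4.88 CPM (log2 change 2.30, adjusted p 2.41e-06). Cxcl16 (log2 change 1.12, adjusted p 4.68e-05) and the receptor Cxcr4 (log2 change 1.39, adjusted p 8.93e-05) rose without overlap. Tnf and Il1b, the classical inflammatory cytokines, were not called (log2 change 0.46, adjusted p 0.394, and log2 change -0.58, adjusted p 0.332). Chemokine and cytokine rises numbered 6 with the clock-side term, 6 in the same-side fit, 8 without both replicates 3, and 10 under library size alone.

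Lymphocyte genes were measured at low levels. Of 17 T and NK cell genes tested 10 rose, against 13.7% of all genes, with summed levels of 30.1 to 61.9 CPM in CD-HFD and 8.23 to 30.1 CPM in CD-LFD. The granzyme gene Gzmk was at 0.813 to 2.56 CPM (median 1.01) against 0 to 0.279 CPM (median 0.145) (log2 change 3.06, adjusted p 0.00117), and the T cell receptor component Cd3d at 1.51 to 3.04 against 0.279 to 1.27 CPM (log2 change 1.63, adjusted p 0.00313). Both were free of overlap, as was perforin, Prf1 (log2 change 1.71, adjusted p 0.00817). Ifng, Ncr1 and Klrb1c were below the filter. The count of rises was 6 without CD-LFD replicate 3 or CD-HFD replicate 2. T and NK cell rises numbered 3 with the clock-side term, 1 in the same-side fit, 5 without both replicates 3, and 14 under library size alone. Among 8 B and plasma cell genes 1 rose, near the 13.7% of all genes. This was Cd22 (log2 change 1.01, adjusted p 0.0360), and its call was lost in 7 of the 12 fits that left out 1 library (adjusted p up to 0.122), the worst without CD-LFD replicate 3. B and plasma cell rises numbered 1 with the clock-side term, 0 in the same-side fit, 0 without both replicates 3, and 1 under library size alone. Of 8 MHC class II genes 6 rose. The invariant chain Cd74 was at 225 to 424 CPM (median 275) against 103 to 219.7 CPM (median 133) (log2 change 1.08, adjusted p 0.000779), with no overlap. MHC class II rises numbered 6 with the clock-side term, 2 in the same-side fit, 5 without both replicates 3, and 6 under library size alone.

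Most of the matrix genes listed rose. Of 21 collagen genes 16 rose and 2 fell, against 13.7% and 7.4% of all genes, with a median log2 change of 1.23 against -0.0113 over all genes. Their summed level overlapped between the groups, at 1448 to 2629 CPM in CD-HFD, 1556 to 1751 CPM in CD-LFD and 1383 to 2189 CPM in controls, and CD-HFD replicate 5 was below every CD-LFD library. Col1a1, a chain of the main fibrillar collagen of scars, was at 102 to 296 CPM (median 207) in CD-HFD, 31.7 to 79.4 CPM (median 51.1) in CD-LFD and 2.74 to 13.6 CPM (median 7.52) in controls (log2 change 2.00, SE 0.303, adjusted p 4.09e-06 for the 2 choline-deficient diets). Col3a1 was at 172 to 423 against 52.1 to 124 CPM (log2 change 1.71, adjusted p 9.75e-06) and Col1a2 at 132 to 244 against 33.9 to 98.8 CPM (log2 change 1.63, adjusted p 1.15e-05). The 2 groups did not overlap for these or for Col5a2 (log2 change 1.66, adjusted p 1.07e-05). The falls, named after their values were seen, were Col5a3 (log2 change -2.03, adjusted p 0.000199) and Col27a1 (log2 change -0.92, adjusted p 0.0469), and neither was called with the clock-side term. Among 30 matrix remodelling genes 23 rose and none fell, with summed levels of 1992 to 3316 CPM in CD-HFD and 1255 to 2159 CPM in CD-LFD that overlapped. The sheddase Adam8 was at 30.6 to 55.3 against 3.84 to 12.2 CPM (log2 change 2.61, adjusted p 5.04e-09) and the metalloproteinase inhibitor Timp2 at 47.8 to 131 against 13.2 to 21.6 CPM (log2 change 1.90, adjusted p 3.31e-07). Collagen rises and falls numbered 17 and 0 with the clock-side term, 17 and 0 in the same-side fit, 10 and 1 without both replicates 3, and 17 and 1 under library size alone. Matrix remodelling rises numbered 23 with the clock-side term, 19 in the same-side fit, 21 without both replicates 3, and 23 under library size alone.

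Stellate cell and myofibroblast genes rose in 7 of 13 cases, against 13.7% of all genes, with summed levels of 413 to 764 CPM in CD-HFD and 207 to 326 CPM in CD-LFD. Vim, the mesenchymal intermediate filament, was at 144 to 289.6 CPM (median 214) against 38.2 to 88.2 CPM (median 58.2) (log2 change 1.83, adjusted p 4.83e-06). Cygb, a globin of stellate cells, was at 41.3 to 74.5 against 14.9 to 34.6 CPM (log2 change 1.22, adjusted p 3.41e-05), and Pdgfra (log2 change 1.36, adjusted p 0.000144) and Tgfbi (log2 change 1.07, adjusted p 8.22e-05) also rose, each without overlap. The myofibroblast marker Acta2 was at 2.98 to 11.2 against 2.39 to 9.15 CPM and was not called (log2 change 0.33, adjusted p 0.537), and neither were the stellate markers Lrat (log2 change -0.23, adjusted p 0.647) and Des (log2 change 0.45, adjusted p 0.216). Stellate cell rises numbered 6 with the clock-side term, 6 in the same-side fit, 5 without both replicates 3, and 7 under library size alone.

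Cholangiocyte genes, which mark bile duct epithelium and ductular reactions, rose in 13 of 14 cases, against 13.7% of all genes, with a median log2 change of 1.84. Their summed level was 169 to 271 CPM in CD-HFD, 71.98 to 137 CPM in CD-LFD and 37.4 to 75.3 CPM in controls. The duct keratin Krt7 was at 10.7 to 17.6 CPM (median 13.8) against 1.75 to 5.73 CPM (median 3.39) (log2 change 1.95, adjusted p 9.6e-05). The epithelial transcription factor gene Ehf was at 9.21 to 17.9 against 1.40 to 5.99 CPM (log2 change 2.04, adjusted p 8.64e-05), and the progenitor marker Prom1 at 5.56 to 18.3 against 0.769 to 4.08 CPM (log2 change 2.25, adjusted p 3.1e-05). All 3 were free of overlap, as was the tight junction gene Cldn4 (log2 change 2.05, adjusted p 8.22e-05). Cholangiocyte rises numbered 13 with the clock-side term, 12 in the same-side fit, 12 without both replicates 3, and 13 under library size alone.

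Of 14 endothelial genes 2 rose and 1 fell, close to the 13.7% and 7.4% over all genes. Stab2, the scavenger receptor of sinusoidal endothelium, fell, at 29.2 to 44.2 CPM (median 34.7) in CD-HFD against 62.8 to 69.6 CPM (median 64.5) in CD-LFD (log2 change -0.85, adjusted p 0.00127), and the groups did not overlap. Cd34, a marker of capillaries that sinusoids largely lack, was at 6.04 to 17.02 CPM (median 8.47) against 1.67 to 4.82 CPM (median 2.91) (log2 change 1.62, adjusted p 0.00076). Stab1 also rose (log2 change 0.55, adjusted p 0.0403) but lost its call in 8 of the 12 fits that left out 1 library (adjusted p up to 0.141), the worst without CD-LFD replicate 3. The pan-endothelial Pecam1 and Cdh5 were not called (log2 change 0.13, adjusted p 0.638, and log2 change -0.08, adjusted p 0.867), and Stab2 was not called with the clock-side term (adjusted p 0.258). Endothelial rises and falls numbered 2 and 0 with the clock-side term, 2 and 0 in the same-side fit, 1 and 1 without both replicates 3, and 4 and 1 under library size alone.

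Some hepatocyte markers and many genes of drug and steroid oxidation fell. Of 14 hepatocyte markers 3 fell, against 7.4% of all genes. They were transthyretin Ttr (log2 change -0.74, adjusted p 0.00387) and the tyrosine catabolism genes Hgd (log2 change -0.55, adjusted p 0.00576) and Hpd (log2 change -0.51, adjusted p 0.0112), and the summed level was 70882 to 106561 CPM in CD-HFD and 69748 to 134790 CPM in CD-LFD. Alb was not called (log2 change -0.37, adjusted p 0.178). Hepatocyte marker rises and falls numbered 0 and 1 with the clock-side term, 0 and 1 in the same-side fit, 0 and 2 without both replicates 3, and 1 and 2 under library size alone. In cytochrome P450 families 1 to 3, 12 of 25 genes fell and only Cyp2a4 rose, against 7.4% and 13.7% of all genes. Cyp2c54 was at 23.4 to 66.9 against 88.2 to 188 CPM (log2 change -1.52, adjusted p 1.37e-05) and Cyp2d10 at 399.7 to 552 against 660.4 to 1038 CPM (log2 change -0.86, adjusted p 1.83e-05), both enzymes of drug and lipid oxidation and both free of overlap. Cyp2e1 was not called (log2 change -0.24, adjusted p 0.523). P450 rises and falls numbered 1 and 8 with the clock-side term, 1 and 7 in the same-side fit, 1 and 11 without both replicates 3, and 1 and 10 under library size alone.

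Male-biased genes of the liver, which follow the pattern of growth hormone secretion, fell, and female-biased genes were called in part. Of 15 male-biased genes 12 fell and none rose, against 7.4% and 13.7% of all genes, with a median log2 change of -1.17. Cyp4a12a, an omega-hydroxylase, was at 34.8 to 84.3 CPM (median 42.6) against 70.6 to 268 CPM (median 176) (log2 change -1.88, adjusted p 1.96e-06), although it may share reads with Cyp4a12b. Cyp2d9 was at 216 to 314 against 323 to 903 CPM (log2 change -1.24, adjusted p 1.55e-05) and Cyp2u1 at 5.89 to 9.84 against 16.6 to 30.6 CPM (log2 change -1.49, adjusted p 1.46e-05), both without overlap. Of 9 female-biased genes tested 4 rose and none fell, while the log2 changes were positive for 5 and negative for 4, down to -1.66. The flavin monooxygenase Fmo2 was at 26.3 to 41.9 against 7.35 to 17.7 CPM (log2 change 1.63, adjusted p 2.6e-05), and Atp6v0d2, also on the macrophage list, at 23.8 to 49.1 against 6.51 to 16.7 CPM (log2 change 1.76, adjusted p 3.13e-05). Cyp2a4, described above, was also among these rises, and 7 of the 16 female-biased genes listed were below the count filter. Female-biased rises numbered 3 with the clock-side term, 3 in the same-side fit, 4 without both replicates 3, and 4 under library size alone.

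Of 17 Mup genes tested 16 fell, against 7.4% of all genes, with a median log2 change of -2.59. Mup3, the copy with the lowest adjusted p, was at 445 to 915 CPM (median 599) in CD-HFD, 1382 to 3441 CPM (median 2278) in CD-LFD and 6819.8 to 10053 CPM (median 8026) in controls (log2 change -1.87, SE 0.198, adjusted p 3.47e-09). The 3 diets did not overlap for Mup3, and Mup21 also fell between the choline-deficient diets (log2 change -2.54, adjusted p 5.96e-09). In the growth hormone axis 2 of 17 genes rose and 4 fell, the rises near the 13.7% over all genes. The receptor Ghr was at 125 to 247 against 221 to 469 CPM (log2 change -0.75, adjusted p 0.00162). Its signal transducer Stat5b (log2 change -0.49, adjusted p 0.0301) and the binding protein Igfbp3 (log2 change -0.72, adjusted p 0.0167) fell, the inhibitor Socs1 rose (log2 change 1.47, adjusted p 0.0290), and Igf1 was not called (log2 change -0.14, adjusted p 0.654). Stat5b and Socs1 each lost the call in 5 of the 12 fits that left out 1 library, the worst without CD-HFD replicate 5 and CD-LFD replicate 3. Growth hormone axis rises and falls numbered 2 and 0 with the clock-side term, 0 and 0 in the same-side fit, 1 and 2 without both replicates 3, and 5 and 1 under library size alone, so that rises and not falls were the larger number with the clock-side term and under library size alone. Male-biased falls numbered 10 with the clock-side term, 3 in the same-side fit, 12 without both replicates 3, and 10 under library size alone. Mup falls numbered 9 with the clock-side term, 7 in the same-side fit, 14 without both replicates 3, and 15 under library size alone.

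The 4 Y-linked genes tested were called lower in CD-HFD, where 7.4% of all genes were. Kdm5d (log2 change -0.55, adjusted p 0.000655), Uty (log2 change -0.56, adjusted p 0.00130), Eif2s3y (log2 change -0.46, adjusted p 0.00524) and Ddx3y (log2 change -0.44, adjusted p 0.00759) fell, and Xist was not called (log2 change -0.18, adjusted p 0.922). Y-linked falls numbered 0 with the clock-side term, 0 in the same-side fit, 4 without both replicates 3, and 2 under library size alone. Their part in the sex-biased differences was not tested.

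**Figure D4:**
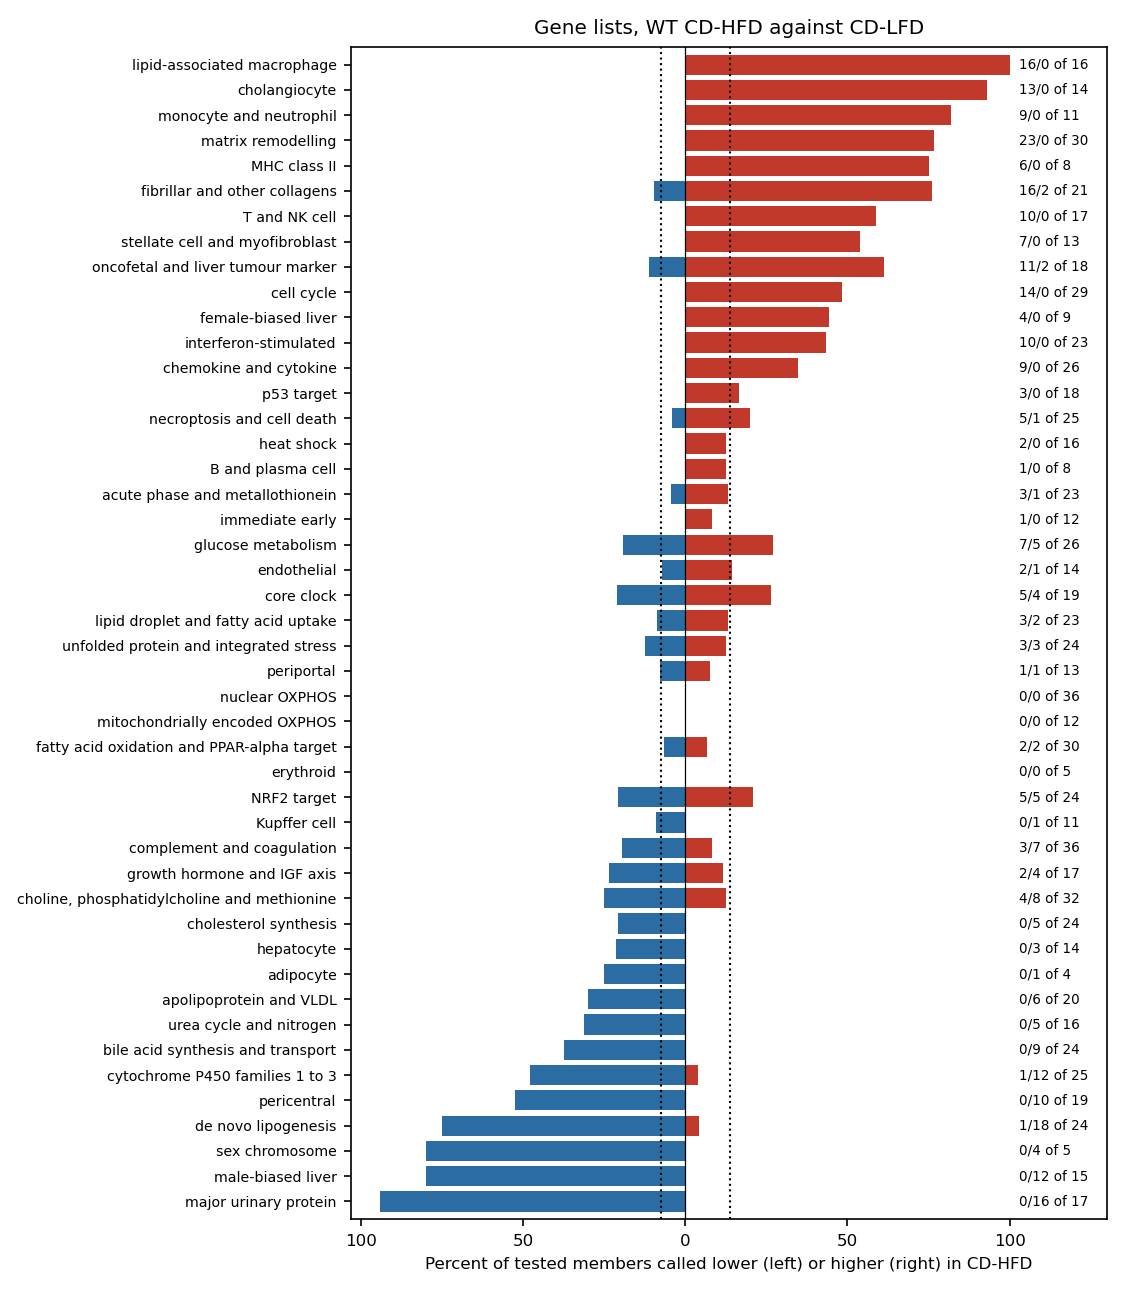
Bars give the percent of tested members called higher (red, to the right) and lower (blue, to the left) in CD-HFD for 46 gene lists, with the numbers higher, lower and tested at the right and dotted lines at 13.7% and 7.4%, the shares over all genes. Lipid-associated macrophage, cholangiocyte and collagen genes stand far above the first line, and major urinary protein, male-biased and de novo lipogenesis genes far beyond the second.

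Many pericentral genes fell. Of 19 pericentral genes 10 fell and none rose, against 7.4% and 13.7% of all genes. Glutamine synthetase, Glul, which is confined to hepatocytes around the central vein, was at 677 to 1048 CPM (median 901) in CD-HFD, 1581 to 2243 CPM (median 1865) in CD-LFD and 519 to 1227 CPM (median 922) in controls (log2 change -1.11, SE 0.172, adjusted p 5.49e-06). CD-LFD was thus the high group for Glul, and its values overlapped with neither CD-HFD nor control. The calcium-binding protein gene Rgn was at 259.6 to 545 against 634 to 1026 CPM (log2 change -1.04, adjusted p 6.46e-06), and the transcription factor gene Tbx3, a Wnt target, fell with overlap (log2 change -1.30, adjusted p 0.000105). Pericentral falls numbered 6 with the clock-side term, 4 in the same-side fit, 9 without both replicates 3, and 8 under library size alone, and Glul had a log2 change of -0.84 in the same-side fit (adjusted p 0.0802). Of 13 periportal genes 1 rose, E-cadherin Cdh1 (log2 change 0.94, adjusted p 0.0228), and 1 fell, Etnppl (log2 change -1.11, adjusted p 0.00770), where 13.7% of all genes rose and 7.4% fell. Periportal rises and falls numbered 1 and 0 with the clock-side term, 0 and 0 in the same-side fit, 0 and 0 without both replicates 3, and 1 and 1 under library size alone. Urea cycle and nitrogen genes fell in 5 of 16 cases, against 7.4% of all genes, among them Oat (log2 change -0.98, adjusted p 0.000632) and Nags (log2 change -0.52, adjusted p 0.00182), while the entry enzyme Cps1 was not called (log2 change -0.11, adjusted p 0.878). The urea count was 3 without CD-LFD replicate 3 or CD-HFD replicate 6. Urea cycle falls numbered 4 with the clock-side term, 1 in the same-side fit, 3 without both replicates 3, and 3 under library size alone.

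Markers of liver tumours and of dividing cells rose in part. Of 18 oncofetal and tumour genes tested 11 rose and 2 fell, against 13.7% and 7.4% of all genes. Tspan8, a tetraspanin of epithelial tumours, was at 11.8 to 31.9 CPM (median 17.3) against 2.20 to 5.80 CPM (median 2.81) (log2 change 2.40, adjusted p 2.07e-06). Scd2, the desaturase of fetal liver, was at 12.2 to 36.2 against 4.18 to 7.59 CPM (log2 change 1.61, adjusted p 1.64e-05), and the adhesion receptor Cd44 at 28.3 to 51.6 against 7.01 to 21.6 CPM (log2 change 1.29, adjusted p 0.000129), each without overlap. Alpha-fetoprotein, Afp, the classical marker of hepatocellular carcinoma, was at 5.15 to 7.68 CPM (median 5.97) in CD-HFD, 4.71 to 7.17 CPM (median 6.32) in CD-LFD and 0.307 to 4.15 CPM (median 2.57) in controls (log2 change 0.031, adjusted p 0.950). Afp overlapped between the choline-deficient diets over most of its range, and its sign turned in 6 refits. The glypican Gpc3 was not called either (log2 change 1.32, adjusted p 0.0626). The falls, named after their values were seen, were Mycn (log2 change -1.82, adjusted p 0.00542) and Aldh1a1 (log2 change -0.57, adjusted p 0.0449). H19 in CD-HFD ranged widely, with 4.06, 9.86, 89.6, 30.8, 7.17 and 8.57 CPM in replicates 1 to 6, and its log2 change was 4.77 to 6.04 over the fits that left out 1 library, the lowest without CD-HFD replicate 3. The count of rises was 6 without CD-LFD replicate 3 and 7 without CD-LFD replicate 4. Oncofetal rises and falls numbered 6 and 1 with the clock-side term, 5 and 0 in the same-side fit, 6 and 1 without both replicates 3, and 13 and 1 under library size alone.

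Among 29 cell cycle genes 14 rose and none fell, against 13.7% and 7.4% of all genes. Cdk1, the mitotic kinase, was at 6.09 to 9.35 CPM (median 7.87) against 2.78 to 4.93 CPM (median 3.63) (log2 change 1.09, adjusted p 4.03e-05). The spindle checkpoint kinase Bub1 (log2 change 1.67, adjusted p 0.00332) rose without overlap, and the replication genes Mcm6 (log2 change 1.07, adjusted p 6.49e-05) and Pcna (log2 change 0.81, adjusted p 0.000961) rose with overlap. Without CD-LFD replicate 3 the count was 9. Cell cycle rises and falls numbered 3 and 1 with the clock-side term, 2 and 0 in the same-side fit, 7 and 0 without both replicates 3, and 17 and 0 under library size alone. With the clock-side term the share that rose was thus near the 11.1% of all genes that rose there.

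The targets of the knockouts in this series were not called between the diets in WT liver. Ripk3 was at 2.34 to 4.44 CPM (median 2.61) in CD-HFD and 1.12 to 3.96 CPM (median 2.38) in CD-LFD (log2 change 0.40, adjusted p 0.536), and Mlkl at 14.3 to 17.7 CPM (median 16.4) against 9.85 to 14.5 CPM (median 11.2) (log2 change 0.49, adjusted p 0.111). Neither was called, and both overlapped between the groups. Of 25 necroptosis and cell death genes 5 rose and 1 fell, where 13.7% of all genes rose and 7.4% fell. Casp1, the inflammasome protease, was at 7.72 to 15.9 against 1.67 to 6.26 CPM (log2 change 1.60, adjusted p 9.71e-06), and its adaptor Pycard at 6.70 to 11.8 against 1.69 to 5.44 CPM (log2 change 1.34, adjusted p 0.000803). Zbp1, a nucleic acid sensor that can engage RIPK3, rose, at 27.3 to 54.1 CPM (median 33.7) in CD-HFD against 10.5 to 23.2 CPM (median 14.8) in CD-LFD (log2 change 1.18, adjusted p 0.000838), and the survival gene Bcl2 also rose (log2 change 1.0, adjusted p 0.00801). All 4 were free of overlap. Bak1 rose and Gsdme fell, both named after their values were seen (log2 change 0.56, adjusted p 0.0154, and log2 change -0.45, adjusted p 0.0495). Necroptosis rises and falls numbered 5 and 0 with the clock-side term, 1 and 0 in the same-side fit, 4 and 0 without both replicates 3, and 6 and 0 under library size alone.

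Stress and defence genes gave mixed counts, to be read against the 13.7% of all genes that rose and the 7.4% that fell. Of 23 interferon-stimulated genes 10 rose, led by the oligoadenylate synthetase Oas1a, at 18.6 to 33.6 against 5.55 to 14.1 CPM (log2 change 1.41, adjusted p 7.91e-05), and Oasl2 (log2 change 1.36, adjusted p 0.0001), and the count was 6 without CD-LFD replicate 3 or CD-HFD replicate 5. Interferon rises numbered 11 with the clock-side term, 6 in the same-side fit, 6 without both replicates 3, and 16 under library size alone. Among 24 NRF2 targets 5 rose and 5 fell. The cystine importer Slc7a11 was at 2.27 to 5.97 CPM (median 3.52) against 0 to 0.866 CPM (median 0.447) (log2 change 2.95, adjusted p 5.52e-07), and it had no counts in any control library. Haem oxygenase, Hmox1, was at 41.00 to 80.2 against 15.7 to 38.6 CPM (log2 change 1.38, adjusted p 0.000141). The NRF2 falls numbered 2 or 3 without any 1 of CD-LFD replicates 2, 3 and 4 or of CD-HFD replicates 1, 2, 4, 5 and 6. NRF2 rises and falls numbered 5 and 1 with the clock-side term, 5 and 0 in the same-side fit, 5 and 4 without both replicates 3, and 6 and 1 under library size alone. Of 23 acute phase genes 3 rose and 1 fell. Lipocalin-2, Lcn2, was at 304 to 593 CPM (median 359) against 44.6 to 106 CPM (median 81.1) (log2 change 2.42, adjusted p 0.00614), with controls at 0.456 to 6.60 CPM. The interleukin-1 receptor antagonist Il1rn (log2 change 1.70, adjusted p 0.000374) and metallothionein Mt1 (log2 change 1.86, adjusted p 0.0209) rose and Hamp2 fell (log2 change -2.55, adjusted p 1.22e-05), and the Mt1 call was lost in 3 of the 12 fits that left out 1 library (adjusted p up to 0.0955), the worst without CD-HFD replicate 6. Acute phase rises and falls numbered 1 and 1 with the clock-side term, 0 and 1 in the same-side fit, 3 and 1 without both replicates 3, and 6 and 1 under library size alone.

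The p53, unfolded protein, heat shock and immediate early lists had shares called higher close to or below the 13.7% of all genes, and 7.4% of all genes fell. Of 18 p53 targets 3 rose, Phlda3 (log2 change 1.66, adjusted p 9.47e-06), Psrc1 (log2 change 2.14, adjusted p 0.000267) and Eda2r (log2 change 1.22, adjusted p 0.0290), the last lost in 6 of 12 fits without 1 library, the worst without CD-LFD replicate 4, while Cdkn1a was not called (log2 change 0.47, adjusted p 0.373). The p53 rises numbered 1 with the clock-side term, 1 in the same-side fit, 2 without both replicates 3, and 6 under library size alone. The unfolded protein and integrated stress genes had 3 rises and 3 falls of 24, with the serine synthesis enzyme Phgdh up (log2 change 2.17, adjusted p 0.000163) and Atf4 down (log2 change -0.65, adjusted p 0.00376). Unfolded protein rises and falls numbered 2 and 0 with the clock-side term, 2 and 0 in the same-side fit, 1 and 3 without both replicates 3, and 3 and 1 under library size alone. Of 16 heat shock genes 2 rose, Cryab (log2 change 1.37, adjusted p 0.000117) and Hspa1a (log2 change 1.59, adjusted p 0.0132). The Hspa1a call rested on CD-HFD replicate 3, at 38.8 CPM, and it had an adjusted p of 0.282 without it. Heat shock rises numbered 2 with the clock-side term, 5 in the same-side fit, 1 without both replicates 3, and 4 under library size alone. Ier3 was the rise among 12 immediate early genes (log2 change 0.94, adjusted p 0.0387), and its call was lost in 8 of 12 such fits, the worst without CD-LFD replicate 3. Immediate early rises numbered 1 with the clock-side term, 0 in the same-side fit, 0 without both replicates 3, and 2 under library size alone. No oxidative phosphorylation gene was called by edgeR or by DESeq2 among 36 nuclear and 12 mitochondrial members, of which 10 and 3 were lower at an unadjusted p under 0.05. With the clock-side term 15 of the nuclear members fell, and none did in the other 3 refits. Erythroid genes gave no call by either tool among 5 (1 at an unadjusted p under 0.05), and the same-side fit called 1 higher. CD-HFD replicate 3, on which that fit rests, had a summed erythroid level of 276 CPM where the other 5 CD-HFD libraries had 61.9 to 89.3. The adipocyte list held 1 fall, Car3, which hepatocytes also express (log2 change -1.53, adjusted p 1.96e-06) and which was not called in the same-side fit, and Adipoq, Lep, Plin1 and Retn were below the filter.

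The same diets were compared in the knockouts, whose libraries share none with WT and all lie on the low side of the clock gap, so that clock side does not differ between their diets. The log2 ratio of Arntl to Dbp itself averaged -6.08 in CD-HFD and -6.77 in CD-LFD in Ripk3-/-. In Mlkl-/- it averaged -5.65 and -6.51. Both were higher in CD-HFD, where WT was lower, and these differences were not tested. In Ripk3-/- liver 1312 genes (8.83%) were called, 854 higher (5.75%) and 458 lower (3.08%), and in Mlkl-/- liver 3523 (23.7%), 2164 higher (14.6%) and 1359 lower (9.14%). Of the 3140 genes called in WT, 3018 (96.1%) had the same sign in Ripk3-/- and 3024 (96.3%) in Mlkl-/-, where 74.4% and 75.2% of all genes tested did. In Ripk3-/- 1071 were called in the same direction, 34.1% of the WT list and 81.6% of its own, and 0 in the opposite one. In Mlkl-/- 2045 were, 65.1% of the WT list and 58.0% of its own, and 2 in the opposite one. Over the genes called higher in WT the median log2 change was 1.27 in WT, 1.05 in Ripk3-/- and 1.46 in Mlkl-/-, and over those called lower -0.69, -0.51 and -0.70. The Ripk3-/- count fell to 500 without its CD-LFD replicate 2, 670 without CD-LFD replicate 1 and 774 without CD-HFD replicate 5, and the Mlkl-/- count to 1926 without its CD-HFD replicate 4.

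The gene lists gave both like and unlike counts in the knockouts, where 5.75% of all genes rose and 3.08% fell in Ripk3-/- and 14.6% and 9.14% in Mlkl-/-. All 16 lipid-associated macrophage genes rose in both. Of 21 collagen genes 10 rose in Ripk3-/- and 17 in Mlkl-/-, and of 14 cholangiocyte genes 4 and 12. Of 29 cell cycle genes 7 and 19 rose, and of 23 interferon-stimulated genes 2 in each. No T and NK cell gene rose in Ripk3-/- by edgeR (7 of 17 at an unadjusted p under 0.05, and 2 by DESeq2), and 4 rose in Mlkl-/-. Falls numbered 9 and 11 of 24 lipogenic genes, 12 and 13 of 15 male-biased genes and 14 and 15 of 17 Mup genes. Nuclear oxidative phosphorylation genes, none of which was called in WT, fell in 4 and 26 of 36 cases. These differences in count between genotypes were not tested as such.

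Single genes of the large groups gave the following values in the knockouts. Mmp12 had a log2 change of 3.63 (adjusted p 2.01e-09) in Ripk3-/- and 3.66 (adjusted p 8.45e-11) in Mlkl-/-. Trem2 changed by 2.36 (adjusted p 1.77e-06) and 2.45 (adjusted p 9.86e-08), and Col1a1 by 1.78 (adjusted p 0.00366) and 2.36 (adjusted p 2.44e-05). Scd1 changed by -2.91 (adjusted p 0.00100) and -3.70 (adjusted p 7e-05), and Mup3 by -1.92 (adjusted p 3.12e-06) and -2.95 (adjusted p 1.39e-09). These genes thus moved the same way in all 3 genotypes. Of the 19 clock genes 1 fell in Ripk3-/-, 2 fell in Mlkl-/- and none rose in either by edgeR, at an unadjusted p under 0.05 or by DESeq2. Rora fell in both, with log2 changes of -0.66 (adjusted p 0.0284) and -0.54 (adjusted p 0.0447). The 4 clock genes followed here were not called there: Arntl gave 0.44 (adjusted p 0.776) and 0.40 (adjusted p 0.708), Dbp -0.29 (adjusted p 0.852) and -0.35 (adjusted p 0.742), Ciart -0.021 (adjusted p 0.989) and -1.03 (adjusted p 0.286), and Bhlhe41 0.28 (adjusted p 0.730) and 0.55 (adjusted p 0.318). Cyp2a4, called in WT, gave 0.25 (adjusted p 0.860) and 0.47 (adjusted p 0.619), and Atp2b2 -0.88 (adjusted p 0.451) and -0.99 (adjusted p 0.328).

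The difference of the fat effect between genotypes was tested as an interaction in the same edgeR fit. No gene was called for Ripk3-/- against WT (0%; 541 at an unadjusted p under 0.05, and 1 by DESeq2) or for Mlkl-/- against WT (0%; 1193 at an unadjusted p under 0.05, and 2 by DESeq2). The DESeq2 calls, named after they were seen, were Mir6236 for Ripk3-/- and Mup21 and A930033H14Rik for Mlkl-/-. The difference for Cyp2a4 was -2.63 for Ripk3-/- (unadjusted p 0.00151, adjusted p 1) and -2.42 for Mlkl-/- (unadjusted p 0.00423, adjusted p 0.551). For Ciart it was -2.50 and -3.51, and for Arntl 2.27 and 2.22, none past the adjusted threshold. Simulated data let the diets differ only in 200 genes averaging at least 1 CPM, changed in WT, and so without a clock difference. In them this test recovered 25% of 2-fold and 81% of 4-fold differences for Ripk3-/- and 22% and 80% for Mlkl-/-. Differences of 2-fold between genotypes were thus mostly missed there, and how far this holds for the measured data was not tested.

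**Figure D5:**
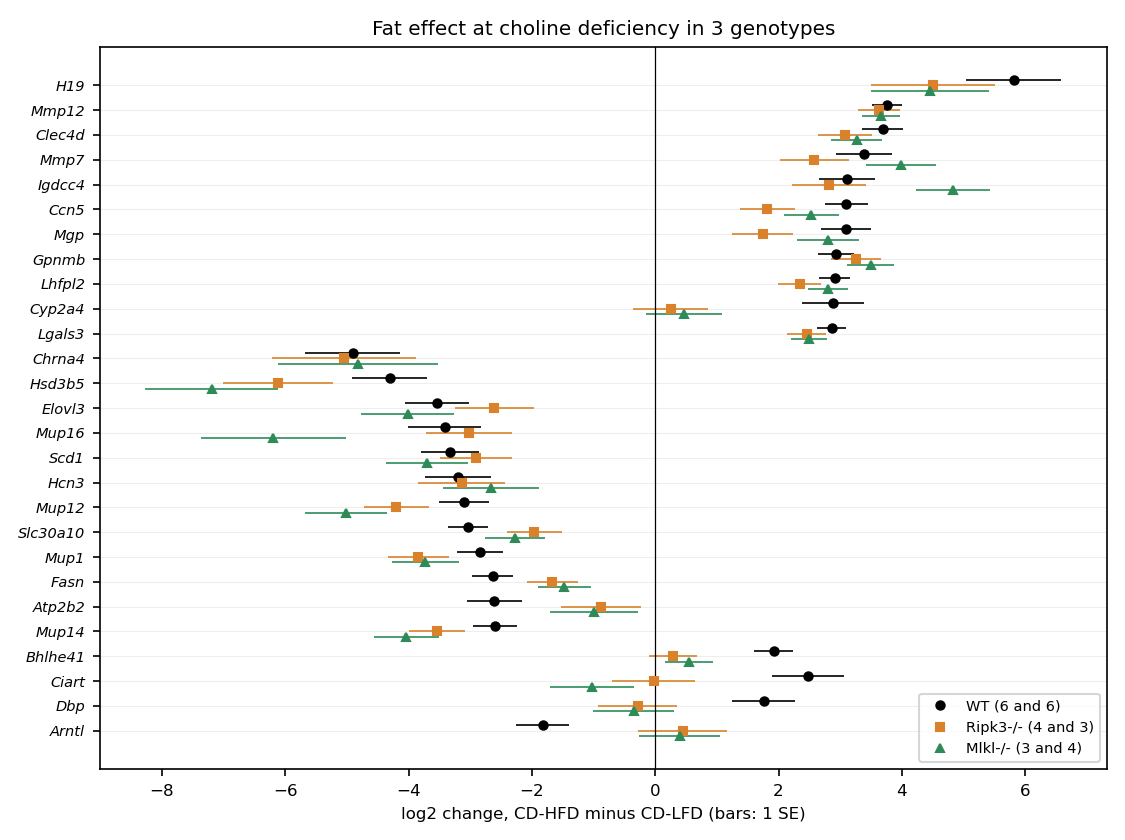
Fitted log2 change of CD-HFD against CD-LFD (horizontal axis) with bars of ±1 standard error for 23 of the 24 genes of largest change in WT and for Bhlhe41, Ciart, Dbp and Arntl, in WT, Ripk3-/- and Mlkl-/- liver. All 23 lie on the same side of 0 in the 3 genotypes, and none of the 4 clock genes is called in either knockout.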

How the data were processed

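Whole liver RNA of WT, Ripk3-/- and Mlkl-/- mice on control diet, CD-LFD or CD-HFD was sequenced. The authors deposited raw read counts per Ensembl gene, 35249 genes in 44 libraries, of which 34373 matched a symbol. The submitters' processing notes name FastQC, STAR, HTSeq, edgeR, limma and the build GRCm39 (mm39), without versions or roles. The strand setting of the counting is not given in the sources used here, so overlapping and near-identical genes are uncertain.

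Groups came from the library titles. The counts were fitted with edgeR 4.0.16 (R 4.3.3, limma 3.58.1), quasi-likelihood test, 1 mean per group over all 44 libraries, TMM scaling and a count filter (minimum 10) that kept 14862 genes and 99.8% of counts. Calls used a Benjamini-Hochberg adjusted p under 0.05. Alternatives were RLE or no scaling, no filter, DESeq2 1.42.0, only the compared groups, a replicate block, clock terms and leaving out libraries. On simulated data with 200 of 14862 genes changed, the WT comparison called 70% of the genes changed 2-fold and 97% of those changed 4-fold. No other gene differed between the diets there, and the changed genes averaged at least 1 CPM. Exact permutation tests used SciPy 1.17.1.

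The comparison, the clock genes and the 47 gene lists (903 different genes) were chosen with earlier results of these data known. Named genes are the 12 largest rises and 12 largest falls among called genes whose groups did not overlap (average log2 CPM 1 or more), up to 4 called genes per list by smallest adjusted p, the clock genes, and Ripk3, Mlkl, Afp, H19, Xist and Ddx3y; 182 in all, a few of which are not reported here. Uncalled list members are given as defining markers.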

Additional observations from a re-analysis of the deposited data

Results flagged for a closer look

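The 23 genes of largest change reported here, the clock genes reported and Ripk3, Mlkl, Afp, Xist and Ddx3y, 46 genes in all, were examined in both groups for a library far from the other 5, by the gap to its nearest neighbour as a share of the group's range (Dixon's 95% limit for 6 values). Gaps and ranges were taken on log2 CPM, while the levels below are plain CPM. Of 92 gene and group pairs 5 passed, and chance gives about 1 in 20. Mup12 in CD-HFD replicate 2 was at 0.122 CPM, a gap of 0.671 of the range, and Mup1 in the same library was at 0 CPM, a gap of 0.727. Atp2b2 in CD-HFD replicate 1 was at 0.542 CPM, a gap of 0.748. Rora in CD-HFD replicate 6 was at 48.9 CPM, a gap of 0.633. Dbp in CD-HFD replicate 3 was at 40.7 CPM, a gap of 0.732, and this is the CD-HFD library on the CD-LFD side of the clock gap.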

How the results depend on the processing

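The 3140 calls became 1606 within the clock side of CD-LFD, 1268 with only the compared groups and the clock ratio as a covariate, and 2047 without both replicate 3 libraries (the last 2 settings were chosen after seeing the data). Calls of at least 2-fold became 1115 with only the compared groups and the clock ratio. Calls higher became 942 in that fit and 1343 without both replicates 3. Calls lower became 500 under library size alone, 601 with the clock side as a term, 239 within the clock side, 326 with only the compared groups and the clock ratio, and 704 without both replicates 3. Differences of the fat effect numbered 4 for Ripk3-/- without a count filter, 1 with only the compared groups and 1 by DESeq2, and for Mlkl-/- 2 without a filter and 2 by DESeq2. The cause of these moves was not tested.

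Leaving out 1 library at a time gave 2504 to 3242 calls, 1424 to 1909 of at least 2-fold, 1603 to 2095 higher and 858 to 1147 lower. It gave 500 to 1321 calls in Ripk3-/-, 1926 to 3146 in Mlkl-/-, 0 to 1 for the Mlkl-/- difference (1 without WT CD-HFD replicate 3) and a clock ratio difference of -4.48 to -3.63. With a replicate block 3230 genes were called, 1769 of them at least 2-fold, and 3619 in a block fit of only the compared groups that was also added after seeing the data. Libraries of the same number had correlations of -0.144 to 0.417, over 0.1 in 3 of 6 pairs and highest with their own number in 3, so the numbers were not treated as pairing. The block over all groups ended no call of a named gene, and the clock ratio gave an exact sign-flip p of 0.0313. Of the named called genes other than the 9 clock genes called, 117 kept their call and 42 lost it with the clock side as a term, and 94 kept and 65 lost it within the clock side.

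With the clock side as a term 3086 of the 3140 called genes kept their sign, and within the clock side 3112 did. Both refits reuse libraries that chose these genes, so kept signs are in part built in. The called clock genes Ciart (-0.93), Dbp (-0.75), Arntl (0.27), Clock (0.35), Per1 (-0.29) and Per3 (-0.96) turned sign with that term, whose side is defined from Arntl and Dbp themselves, as did Fads2 (-0.077). Among the other genes named by the rule, signs turned for 4 that were not called. That count leaves out the uncalled clock genes in the fits with a clock term or within the clock side. Afp was at -0.10 within the clock side, -0.21 with only the compared groups and the clock ratio, -0.014 with CD-LFD replicate 3 thinned, and -0.031 to 0.082 over the fits without 1 library. Xist was at 0.024 under library size alone, 0.32 with the clock side as a term, 0.14 within the clock side, and -0.53 to 0.39 without 1 library. Hlf was at 0.0019 with RLE factors, 0.16 under library size alone, 0.0050 by DESeq2, 0.14 without both replicates 3, and -0.14 to 0.081 without 1 library. Nr1d2 was at -0.0046 to 0.12 without 1 library. Depths of 4960324 counts and more limit genes under about 1 CPM to few counts per library.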
